A study of Mus musculus with 48 samples.

Results

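The transcripts encoded by the mitochondrial genome were followed through reprogramming of mouse fibroblasts to pluripotency. They are the 37 of 24264 transcript rows of the count table that lie on the mitochondrial chromosome, chrM, and all rows of that chromosome were taken. These rows are 2 rRNAs, 13 protein-coding genes and 22 tRNAs, and 28 of them run along the strand of most mitochondrial genes while 9 (mt-Nd6 and 8 tRNAs) run along the opposite strand. RNA of 48 libraries from 20 conditions was sequenced by STRT, a method that reads a tag from the 5′ end of transcripts.

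MKOS and OKMS are cassettes of c-Myc, Klf4, Oct4 and Sox2 on a single doxycycline-inducible transcript, placed in the Sp3 locus, which differ in the order of the factors and in the form of Klf4 (the long Klf4_L in MKOS, and in OKMS the short Klf4_S, which lacks the first residues of the protein). TNG denotes a GFP reporter inserted into *Nanog*. The MEFs (mouse embryonic fibroblasts of the 129 background) were WT MEF, MKOS MEF and OKMS MEF with 2 libraries each, the latter 2 from chimeric midgestation embryos. Reprogramming cells came from the TNG MKOS and TNG OKMS MEFs, diluted with WT MEFs, in doxycycline and vitamin C, for 10 or 15 days by the labels and 10 days by the methods. They were sorted, with 3 libraries per population, into E-CAD+ 2NG-, 3NG- and 3NG+ cells for MKOS and for OKMS and, for OKMS alone, into E-CAD- cells of the 2NG- and 3NG- gates. Here E-CAD is the epithelial adhesion molecule E-cadherin, 2 stands for CD44- ICAM1- cells, 3 for CD44- ICAM1+ cells, and NG for the *Nanog*-GFP reporter. The iPSCs were MKOS and OKMS lines without doxycycline (-dox) or in 2i medium and the D6 line, and the ESCs were TNG MKOS, TNG OKMS, TNG and E14, with 2 libraries each. The labels do not say whether libraries of a condition came from separate cultures, so p-values measure the spread between these libraries, which may be technical.

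Mitochondria keep a small circular genome that encodes subunits of the respiratory chain and of ATP synthase, together with the rRNAs and tRNAs that translate them. Both strands are transcribed as long precursors, and the tRNAs between the other genes mark where these precursors are cut. All proteins that copy, transcribe, process and translate this genome are made from nuclear genes. Pluripotent cells are known for a smaller reliance on respiration than fibroblasts.

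Many mitochondrial sequences have copies in the nuclear genome, which decides how their reads could be placed. The longest copy in the mouse build NCBIM37 (mm9) lay at chr1:24618374-24623027 on the minus strand, and its 4654 aligned bases matched chrM:6390-11042 at 99.936% identity. In total, 11 of the 37 rows lay inside it, 6 of them protein-coding. The first 60 bases of the coding sequences of mt-Atp8, a subunit of ATP synthase, and mt-Nd3, a subunit of respiratory complex I, are shown beside their chromosome 1 copies. They are the most and the least abundant protein-coding members, and capitals mark the base that differs.
mt-Atp8, chrM:7766-7825, plus strand: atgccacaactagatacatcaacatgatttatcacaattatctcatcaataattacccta
mt-Atp8 copy, chr1:24621592-24621651, minus strand: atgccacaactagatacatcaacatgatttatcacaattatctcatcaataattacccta
mt-Nd3, chrM:9459-9518, plus strand: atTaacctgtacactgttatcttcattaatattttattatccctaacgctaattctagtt
mt-Nd3 copy, chr1:24619899-24619958, minus strand: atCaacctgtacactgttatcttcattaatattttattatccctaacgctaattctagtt

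The mt-Atp8 pair is identical over these bases, and the mt-Nd3 pair differs by 1 substitution, T9461C, counted along chrM. Reads of mt-Atp8 and of its copy therefore cannot be told apart here. Over all libraries, 68.3% of the reads on mitochondrial rows had a unique position, compared with 74.4% on nuclear rows. The share was 99.1% on the rRNA rows, 85.3% on the tRNA rows and 28.3% on the protein-coding rows. In total 10 rows had no unique read, including mt-Co2, mt-Atp8, mt-Atp6, mt-Co3 and mt-Nd4l, and these 10 rows held 28.1% of the mitochondrial reads. Unique reads made up 0.137% of the mt-Nd3 reads and 48.9% of those of mt-Co1, the catalytic subunit of cytochrome oxidase. Values of rows in the copied stretch are therefore sums over places that these reads cannot separate.

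Sequences of mt-Tl2, mt-Tm and mt-Nd6 follow from NCBIM37, as the 3 members whose calls between ESCs and MEFs held without any single library. For mt-Tl2, which passed the low-count filter through MEF libraries alone, this is a description. Capitals mark the anticodons of mt-Tl2, a leucine tRNA, and mt-Tm, the methionine tRNA. The first 60 coding bases of mt-Nd6, a complex I subunit and the sole protein gene of the opposite strand, are given in the direction of its transcript.
mt-Tl2, chrM:11671-11741, plus strand: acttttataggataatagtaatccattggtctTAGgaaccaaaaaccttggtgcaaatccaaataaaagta
mt-Tm, chrM:3845-3913, plus strand: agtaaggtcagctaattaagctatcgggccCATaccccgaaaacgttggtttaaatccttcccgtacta
mt-Nd6, chrM:14011-14070, minus strand: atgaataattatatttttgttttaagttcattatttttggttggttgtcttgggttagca

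All reads on the rows of mt-Tl2 and mt-Tm were unique. The mt-Tl2 row starts before its gene and covers the serine tRNA gene mt-Ts2 as well, so its reads may start in either gene. The mt-Tm row starts 71 bases before its gene, over most of the opposite-strand tRNA gene mt-Tq, so its reads may start there as well. For 11 rows the file starts about 100 bases before the gene, and reads there may start in the neighbor.

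Libraries held 1429717 to 14174725 reads on transcripts, so that 3 reads, taken here as the detection floor, corresponded to 0.212 to 2.10 CPM (counts scaled to a library total of 1000000 transcript reads). Floors and intervals cover counting error only, since PCR copies were not removed. Each condition's RNA is a bulk sample, in which fewer cells of a type and less RNA per cell cannot be told apart. Fibroblast markers summed to 3697 to 6012 CPM in MEFs, 97.9 to 325 in iPSCs and 135 to 399 in ESCs. Pluripotency markers summed to 2.34 to 12.5 CPM in MEFs, where 2 of the 8 were at 0 in all 6 libraries, and to 11577 to 18452 in ESCs. *Fn1* made up most of the fibroblast sum in iPSCs (median 232 of 243 CPM) and ESCs (190 of 199 CPM). *Dppa5a* made up most of the pluripotency sum in ESCs (median 12486 of 15705 CPM). The E-cadherin gene *Cdh1* stood at 4.24 to 51.5 CPM in the OKMS E-CAD- libraries and 137 to 182 CPM in the E-CAD+ libraries of the same gates and cassette.

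Mitochondrial rows took 26584821 of 337568013 transcript reads. The rRNA rows held 56.3% of them, the protein-coding rows 43.4% and the tRNA rows 0.319%, while the 9 rows of the opposite strand held 0.264%. mt-Rnr2, the large rRNA, was the most abundant row with a mean of 39682 CPM and 50.3% of the mitochondrial reads. mt-Atp8 followed with 11268 CPM on average (lowest 4069, highest 19304) and 13.7% of the mitochondrial reads. The next rows were mt-Co2 (5711 CPM), the small rRNA mt-Rnr1 (4661 CPM), the complex I subunit mt-Nd1 (3994 CPM) and the cytochrome oxidase subunits mt-Co3 (3655 CPM) and mt-Co1 (3296 CPM). These levels are counts of 5′ tags and were not divided by length. Whether tags on tRNA rows come from mature tRNAs or from uncut precursors was not tested, so they are not levels of mature tRNA. mt-Nd3 was the least abundant protein-coding row at 58.5 CPM, with 16.8 to 243 CPM in single libraries. Of the tRNAs, mt-Tf, at the start of the heavy-strand precursor, had the highest mean (105 CPM), followed by mt-Tl1 (41.7 CPM), mt-Tt (23.3 CPM) and mt-Tv (21.0 CPM). mt-Th, the histidine tRNA, had no read in any library, and mt-Ts2 had 95 reads in 22 libraries and at most 2.47 CPM. The whole mt-Th gene lies in a copy of chrM:11514-11642 on chromosome 2 at 100% identity, and no mt-Ts2 read was unique. Missing reads on mt-Th therefore do not show that its RNA was absent, since reads with several positions may have been assigned elsewhere. mt-Th and mt-Ts2 failed the low-count filter, and the other 35 rows were tested.

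**Figure D1:**
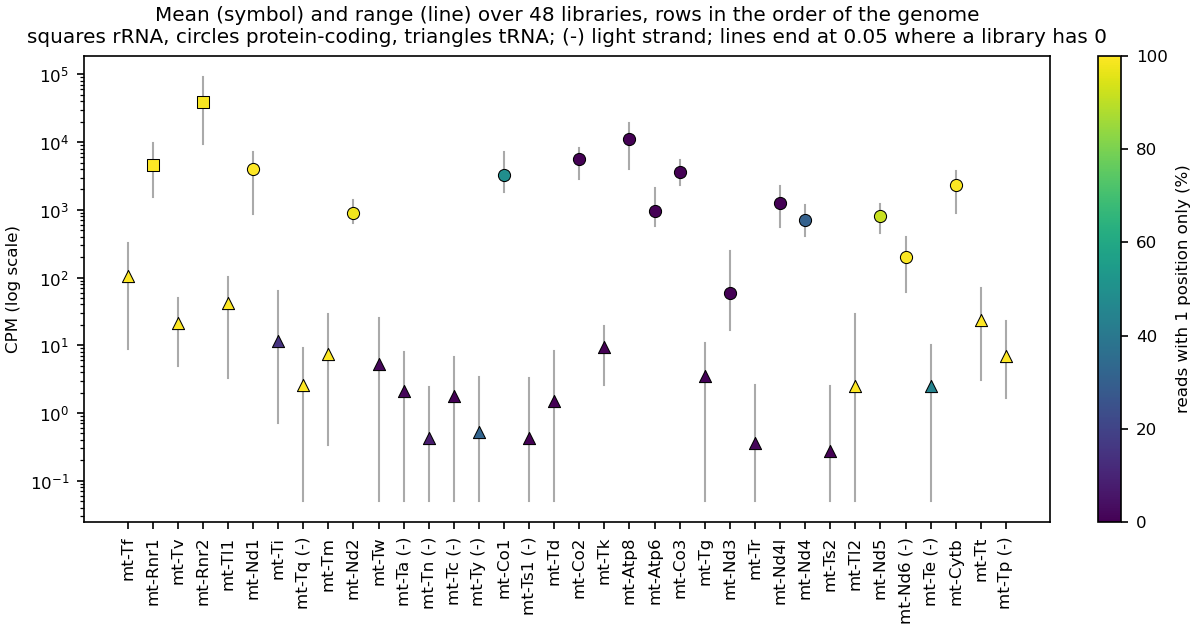
Mean CPM of each mitochondrial row over 48 libraries, on a log scale, with the rows in genome order and bars from the lowest to the highest library. Color gives the percentage of unique reads, and mt-Rnr2 (39682 CPM) and mt-Atp8 (11268 CPM) stand highest.

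The mitochondrial share of the transcript reads ranged from 3.33% to 13.6%, with a median library of 7.83%. It was 7.41% and 7.01% in WT MEFs, 8.84% and 7.94% in MKOS MEFs and 8.24% and 6.73% in OKMS MEFs. It was 9.86%, 9.52% and 9.51% in MKOS 2NG- cells and 8.09%, 6.16% and 7.12% in MKOS 3NG- cells. The 3 libraries of MKOS 2NG- cells were thus above all 6 MEF libraries, whereas MKOS 3NG- cells overlapped them.

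In OKMS reprogramming the share was 13.6%, 6.53% and 8.70% in E-CAD- 2NG- cells and 12.4%, 9.42% and 9.96% in E-CAD- 3NG- cells. It was 10.9%, 7.72% and 7.07% in E-CAD+ 2NG- cells and 8.26%, 10.6% and 7.20% in E-CAD+ 3NG- cells. Libraries of a single OKMS population differed by as much as populations did, and E-CAD- and E-CAD+ cells overlapped. The 3NG+ cells had shares of 9.01%, 5.33% and 8.02% with MKOS and 9.78%, 7.37% and 6.56% with OKMS, which also overlapped.

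The share in iPSCs was 6.16% and 6.86% for MKOS -dox, 5.56% and 6.19% for MKOS in 2i, 8.21% and 7.46% for OKMS -dox, 7.35% and 9.72% for OKMS in 2i, and 8.66% and 6.69% for D6. It was 6.18% and 7.17% in TNG MKOS ESCs, 3.33% and 8.03% in TNG OKMS ESCs, 6.25% and 6.63% in TNG ESCs, and 8.08% and 9.19% in E14 ESCs. The lowest share of all libraries and one above the median were thus from the same ESC line, a ratio of 2.41, which was the largest ratio between replicates. Class medians ran from 6.90% in ESCs to 9.69% in OKMS E-CAD- cells, with 7.67% in MEFs, 8.80% in MKOS 2NG- and 3NG- cells, 7.99% in OKMS E-CAD+ 2NG- and 3NG- cells, 7.69% in 3NG+ cells and 7.10% in iPSCs. The pooled SD within conditions was 1.69 percentage points, and the SD of the 20 condition means, each over 2 or 3 libraries, was 1.29. The sum was not tested, since it is a score over chosen members.

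**Figure D2:**
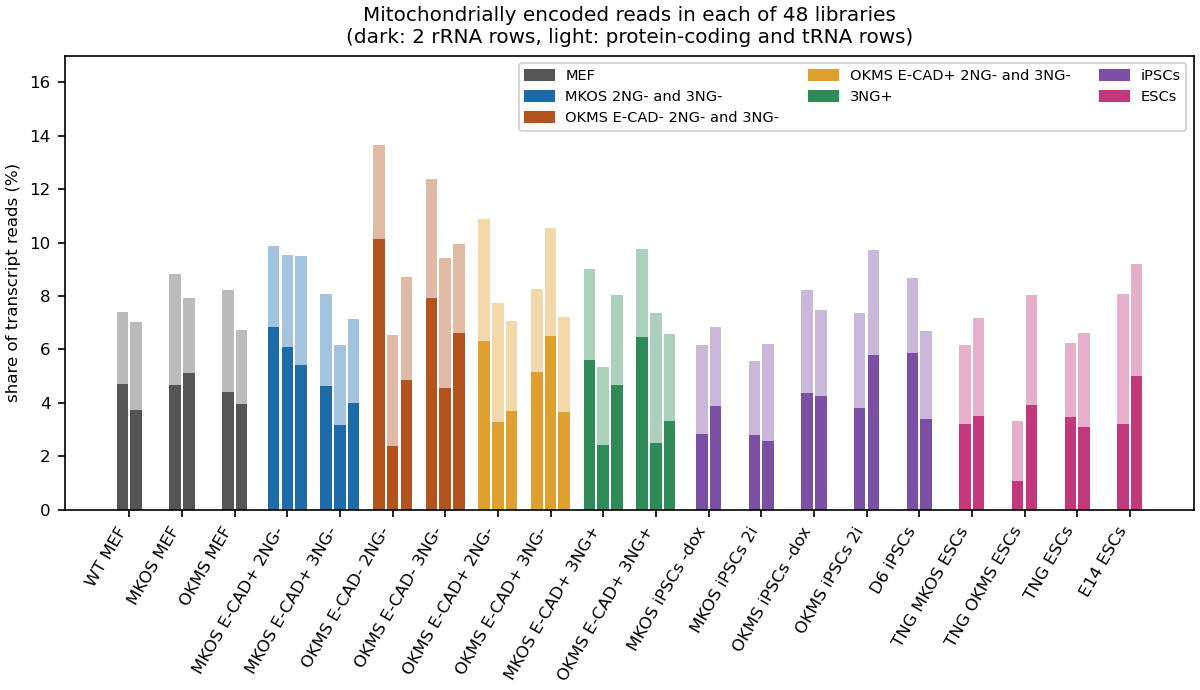
Mitochondrial share of the transcript reads (%) in each of 48 libraries, grouped by condition, with the rRNA rows dark and the other rows light. The TNG OKMS ESC libraries stand at 3.33% and 8.03%, and the tallest bar is an OKMS E-CAD- 2NG- library at 13.6%.

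The large rRNA mt-Rnr2 stood at 41326 and 34379 CPM in WT MEFs, 43440 and 44199 CPM in MKOS MEFs, 38782 and 32137 in OKMS MEFs, 62277, 55480 and 50253 CPM in MKOS 2NG- cells and 43106, 27497 and 36816 CPM in MKOS 3NG- cells. In OKMS cells it was 91675, 20138 and 44598 CPM (E-CAD- 2NG-), 69612, 41501 and 57263 CPM (E-CAD- 3NG-), 58000.5, 29512 and 32815 CPM (E-CAD+ 2NG-) and 45824, 59292 and 33908 CPM (E-CAD+ 3NG-). The highest and the lowest of these sorted libraries belonged to the same population, OKMS E-CAD- 2NG-.

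In 3NG+ cells mt-Rnr2 was 51228, 21242 and 41807 CPM with MKOS and 55330, 22286 and 28568 CPM with OKMS. In iPSCs it was 24862 and 35534 CPM (MKOS -dox), 25196 and 23301 CPM (MKOS 2i), 39084 and 38038 CPM (OKMS -dox), 34458 and 51998 CPM (OKMS 2i), and 51272 and 29712 CPM (D6). In ESCs it was 28726 and 31494 CPM (TNG MKOS), 9277 and 36062 CPM (TNG OKMS), 30505 and 27768 CPM (TNG), and 27424 and 45735 CPM (E14). All 7 classes of cells overlapped in mt-Rnr2.

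The small rRNA mt-Rnr1 stood at 5725 and 3024 CPM in WT MEFs, 3375 and 6993 CPM in MKOS MEFs, 5099 and 7517 in OKMS MEFs, 6023, 5570 and 4008 CPM in MKOS 2NG- cells and 3353, 4111 and 3037 CPM in MKOS 3NG- cells. In OKMS cells it was 9514, 3839 and 3939 CPM (E-CAD- 2NG-), 9674, 3956 and 9057 CPM (E-CAD- 3NG-), 5029, 3426 and 3953 CPM (E-CAD+ 2NG-) and 5825, 5854 and 2623 CPM (E-CAD+ 3NG-). Of these libraries the 3 highest were from E-CAD- cells, whose libraries ranged widely.

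In 3NG+ cells mt-Rnr1 was 4925, 2934 and 4802 CPM with MKOS and 9234, 2753 and 4690 CPM with OKMS. In iPSCs it was 3522 and 3342 CPM (MKOS -dox), 2600 and 2297 CPM (MKOS 2i), 4428 and 4629 CPM (OKMS -dox), 3768 and 6036 CPM (OKMS 2i), and 7349 and 4362 CPM (D6). In ESCs it was 3151 and 3527 CPM (TNG MKOS), 1535 and 3047 CPM (TNG OKMS), 4200 and 3137 CPM (TNG), and 4688 and 4230 CPM (E14). The ratio of mt-Rnr2 to mt-Rnr1 ran from 4.28 to 12.9 over the libraries.

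Between libraries, rRNA rows made up 32.5% to 74.2% of the mitochondrial reads, tRNA rows 0.135% to 0.490%, and rows of the opposite strand 0.131% to 0.672%. Over the 48 libraries, the rRNA share of the transcript reads followed the mitochondrial share (Pearson's r 0.942, Spearman's rho 0.911). The protein-coding share did so less closely (r 0.470, rho 0.478), and the rRNA and protein-coding shares were weakly related (r 0.145, rho 0.123). These are descriptions of quantities with a common denominator, and the rRNA and protein-coding shares are parts of the total they were set against.

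In a fit over all 48 libraries with edgeR's quasi-likelihood test, 14 comparisons were made, and rows were called at a Benjamini-Hochberg FDR of at most 0.05 over 15630 rows. Comparisons that share a group of libraries are not independent of each other. A member was called in 5 of the 14 comparisons, for 20 calls in all, and 13 of these were between ESCs and MEFs. The other 9 comparisons called no member.

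The leucine tRNA row mt-Tl2 was detected in MEFs and was near 0 in all other cells. It had 41 and 71 reads in WT MEFs, 279 and 94 in MKOS MEFs and 158 and 113 in OKMS MEFs, or 3.09 and 12.97, 28.6 and 20.8, and 29.3 and 12.9 CPM. No other library had more than 9 reads or 1.58 CPM, and all 6 libraries of 3NG+ cells had 0 reads. Together, 756 reads in 6 MEF libraries (16.04 CPM) stood against 65 reads in the other 42 (0.224 CPM), a ratio of 71.7 (95% exact interval of the counts 55.6 to 93.8).

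The row passed the low-count filter through the 6 MEF libraries alone, so a difference from MEFs was built into its testing, and the calls and missing overlaps given for it are a description. mt-Tl2 was the single tested member whose 6 MEF libraries did not overlap the other 42, beside 9.28% of all tested rows (5.6% with MEFs higher). Against the 18 iPSC and ESC libraries it was again the single one, beside 22.3% of all rows (13.2% with MEFs higher). Against the 18 libraries of 2NG- and 3NG- cells there were 2 such members, mt-Tl2 and mt-Tm, beside 12.6% of all rows (6.53% with MEFs higher). mt-Tm stood at 15.6 and 28.9 CPM in WT MEFs, 22.6 and 24.4 CPM in those with MKOS and 24.9 and 12.7 CPM in those with OKMS, and at 0.343 to 11.8 CPM in the 2NG- and 3NG- cells. It was 0.699 to 5.26 CPM in 3NG+ cells and 0.335 to 9.17 CPM in ESCs. iPSCs overlapped the MEFs, at 0.705 to 17.7 CPM, since 3 of the 10 iPSC libraries were above the lowest MEF value of 12.7 CPM.

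**Figure D3:**
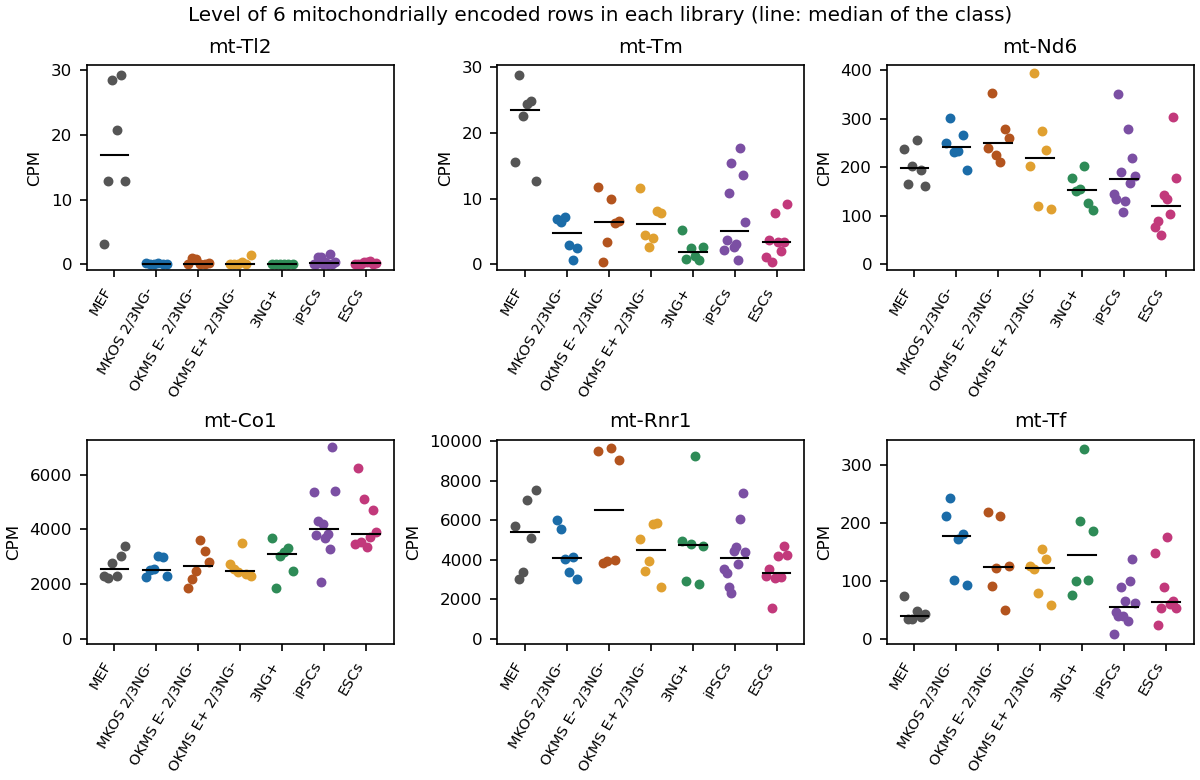
CPM in each library of mt-Tl2, mt-Tm, mt-Nd6, mt-Co1, mt-Rnr1 and mt-Tf for 7 classes of cells, with a line at the class median. mt-Tl2 lies between 3.09 and 29.3 CPM in MEFs and at most at 1.58 CPM elsewhere, while the other members overlap between several classes.

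TNG MKOS and TNG OKMS ESCs (4 libraries) were compared with MKOS and OKMS MEFs (4 libraries), as pluripotent cells against fibroblasts. Per the paper, these ESC lines gave the chimeric embryos from which such MEFs were prepared. They are thus not a product of reprogramming. Of the 35 tested members, 2 were higher and 11 lower in ESCs, while 26% of all rows were called higher, 25% lower and 50.9% in either direction. The lower rows were the small rRNA, 3 complex I subunits and 7 tRNAs. The median log2 difference was -0.58 over the members, -0.80 over the rRNAs, -0.17 over the protein-coding rows and -1.22 over the tRNAs, against 0 over all rows, with 6 members above and 29 below 0. A total of 10 members did not overlap between these groups, beside 43.2% of all rows.

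mt-Tl2 had 644 reads in the 4 MEF and 4 reads in the 4 ESC libraries, a ratio of 183 (interval 71.0 to 672), and was called lower (edgeR FDR 2.43e-05). mt-Tm fell from 22.6, 24.4, 24.9 and 12.7 CPM to 1.08, 3.64, 0.335 and 7.87 CPM, by 2.75 on the log2 scale (SE 0.75, edgeR FDR 0.00233). mt-Nd6 fell from 203, 257, 195 and 162 CPM to 77.1, 88.8, 60.7 and 143 CPM, by 1.13 (SE 0.28, edgeR FDR 0.000764). The groups did not overlap in these 3 members, and each kept its call without any of the 8 libraries. For mt-Tl2 these are a description, since MEF libraries alone carried the row through the low-count filter. The mt-Tm difference ran from -2.31 without TNG OKMS ESC replicate 1 to -4.70 without replicate 2 of the same line. mt-Tl2 and mt-Tm alone kept it when libraries were scaled on spike-in RNA (0 higher and 2 lower), where the FDR of mt-Nd6 was 0.105.

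mt-Rnr1 was lower in ESCs by 1.02 on the log2 scale (SE 0.33, edgeR FDR 0.00876), and its groups overlapped (3375 to 7517 CPM in MEFs and 1535 to 3527 CPM in ESCs). The call was lost without MKOS MEF replicate 2 (FDR 0.0675) or TNG OKMS ESC replicate 1 (FDR 0.0661). mt-Rnr2 was not called (log2 difference -0.58, SE 0.36, FDR 0.178). The 95% intervals of the difference were -1.69 to -0.36 for mt-Rnr1 and -1.29 to 0.14 for mt-Rnr2. Without the low-count filter, however, edgeR called mt-Rnr2 lower in ESCs (-0.61, FDR 0.000187). In that fit mt-Nd1 was also called lower (-0.42, FDR 0.0324) and mt-Tf higher (0.96, FDR 9.17e-05). The tRNA mt-Tg was called lower with DESeq2 (FDR 0.0148) and, by edgeR, with DESeq2's size factors (0.0343), the replicate block (0.0454) or without 7 sorted libraries (0.0373).

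Among the other protein-coding rows, mt-Co1 was higher in ESCs, where it stood at 3461, 6253, 3530 and 5095 CPM compared with 2767, 2279, 3021 and 3376 CPM in MEFs. The log2 difference was 0.65 (SE 0.20, edgeR FDR 0.00522), and the groups did not overlap. This call did not hold without TNG MKOS ESC replicate 2 (FDR 0.0567) or TNG OKMS ESC replicate 2 (FDR 0.106). The complex I subunit mt-Nd2 was 1101, 987, 882 and 1076 CPM in MEFs and 654, 819, 632 and 699 CPM in ESCs, lower by 0.56 (SE 0.19, edgeR FDR 0.0113). Without MKOS MEF replicate 1 its FDR was 0.0555, and without TNG OKMS ESC replicate 1 it was 0.0590. mt-Nd3 was 45.0 and 53.6 CPM in MKOS MEFs, 154 and 243 in OKMS MEFs, 32.9 and 64.9 CPM in TNG MKOS ESCs and 92.7 and 17.9 CPM in TNG OKMS ESCs. It was called lower by 1.03 (SE 0.36, edgeR FDR 0.0169), with overlapping groups, and not without OKMS MEF replicate 2 (FDR 0.0546), TNG MKOS ESC replicate 1 (FDR 0.0787) or TNG OKMS ESC replicate 2 (FDR 0.134). mt-Atp8 was not called (-0.15, SE 0.32, FDR 0.760).

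Of the tRNAs called, mt-Te, the glutamate tRNA, stood at 7.27, 5.76, 5.57 and 2.75 CPM in MEFs and 0.685, 0.727, 0 and 2.95 CPM in ESCs, lower by 2.28 (SE 0.91, edgeR FDR 0.0342). Its groups overlapped, and the call was lost without MKOS MEF replicate 1 (FDR 0.0714), OKMS MEF replicate 1 (0.104), TNG MKOS ESC replicates 1 (0.0810) or 2 (0.0878), or TNG OKMS ESC replicate 1 (0.1201). Its difference was -5.51 without TNG OKMS ESC replicate 2, and without the low-count filter its FDR was 0.0516. The leucine tRNA mt-Tl1 stood at 88.8, 33.01, 102 and 44.4 CPM in MEFs and 30.6, 15.0, 19.3 and 31.8 CPM in ESCs, lower by 1.48 (SE 0.54, edgeR FDR 0.0205). That call was lost without MKOS MEF replicate 1 (FDR 0.171), OKMS MEF replicate 1 (0.137), TNG MKOS ESC replicate 2 (0.0927) or TNG OKMS ESC replicate 1 (0.0865). The serine tRNA mt-Ts1 was the second higher row, with 1, 0, 1 and 0 reads in MEFs and 13, 5, 4 and 30 reads in ESCs. All of its reads had several positions in the genome, and the pooled ratio was 22.9 (interval 6.04 to 194, edgeR FDR 0.0451). DESeq2 gave it an FDR of 0.0565, and the edgeR call was lost on leaving out each library but TNG OKMS ESC replicate 1, with FDRs of 0.05004 to 0.154. Without the low-count filter, which the row passed through 2 libraries (this ESC line's replicate 2 and MKOS 3NG+ replicate 3), its FDR was 0.127. mt-Tv, mt-Tk and mt-Tp, the tRNAs of valine, lysine and proline, were the other called rows, with log2 differences of -1.18, -1.16 and -1.37. mt-Tv lost its call without MKOS MEF replicate 1 (FDR 0.0606), TNG MKOS ESC replicate 2 (0.0876) or TNG OKMS ESC replicate 1 (0.119). mt-Tk lost it without MKOS MEF replicate 1 (0.225), OKMS MEF replicate 1 (0.125), TNG MKOS ESC replicate 2 (0.0746) or TNG OKMS ESC replicate 1 (0.132). mt-Tp lost it without MKOS MEF replicate 2 (0.0738), OKMS MEF replicate 1 (0.0943), TNG MKOS ESC replicate 1 (0.0881), TNG OKMS ESC replicate 1 (0.0719) or 2 (0.0540). Fibroblast markers differed between these groups as given above, and their part in these differences was not tested.

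**Figure D4:**
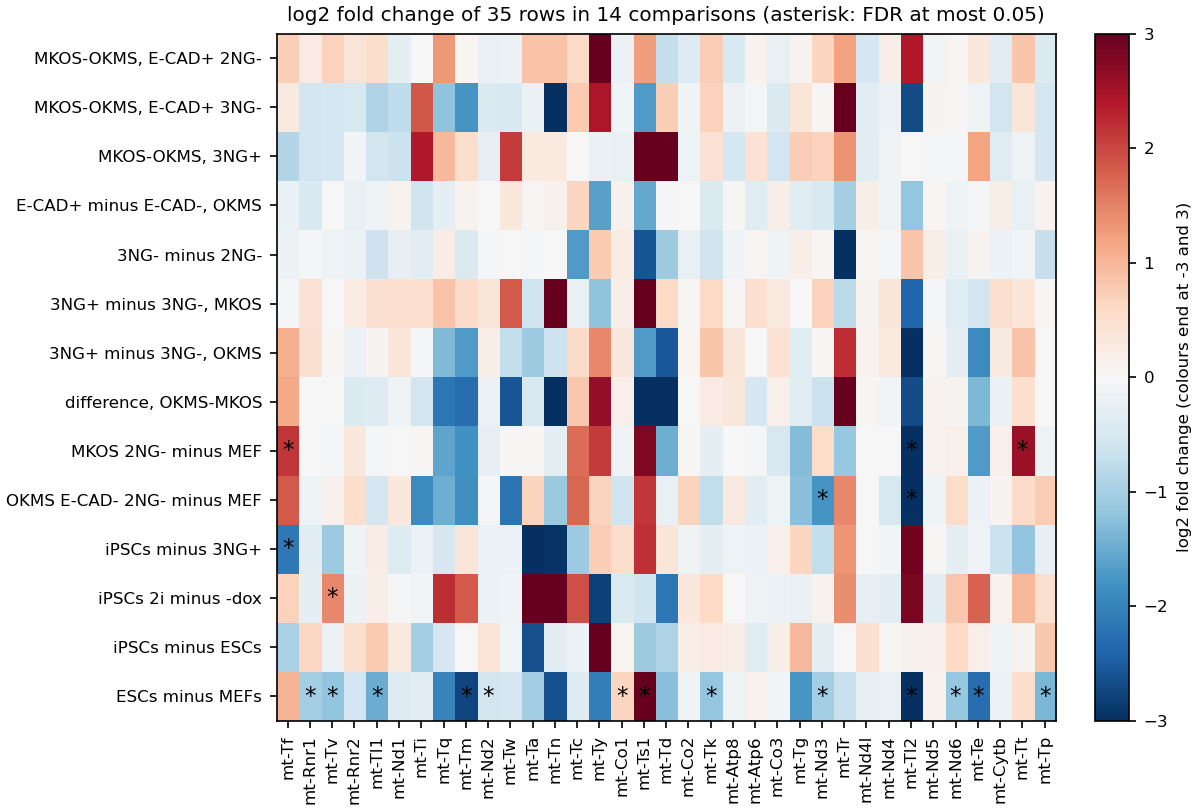
Log2 differences of 35 mitochondrial rows in 14 comparisons, with an asterisk for an edgeR FDR of at most 0.05. Of the 20 asterisks, 13 stand in the comparison of ESCs with MEFs, and the mt-Tl2 row has 3.

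MKOS E-CAD+ 2NG- cells were compared with MKOS MEFs (3 and 2 libraries). These cells were sorted after days in doxycycline and vitamin C and were already E-CAD+ and CD44- ICAM1-. The difference therefore spans more than a first step of reprogramming, and parts due to culture or sorting cannot be told apart. In MKOS 2NG- cells 2 members were higher and 1 was lower, beside 27% of all rows called in either direction (15% higher, 12% lower). mt-Tt, the threonine tRNA, rose from 6.35 and 7.98 CPM to 47.4, 43.1 and 40.4 CPM, by 2.58 on the log2 scale (SE 0.71, edgeR FDR 0.00542). mt-Tf, the phenylalanine tRNA, rose from 34.5 and 47.9 CPM to 213, 243 and 102 CPM, by 2.15 (SE 0.72, edgeR FDR 0.0220). mt-Tl2 fell from 373 reads in the MEFs to 2 reads in the 2NG- cells, a ratio of 313 (interval 86.0 to 2593, edgeR FDR 0.000363). The groups did not overlap in these 3 tRNAs, as in 57.4% of all rows.

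The mt-Tl2 call held without any single library, which is a description, since MEF libraries alone carried the row through the low-count filter. mt-Tf was not called without MKOS MEF replicate 1 (FDR 0.150), MKOS MEF replicate 2 (FDR 0.103) or MKOS 2NG- replicate 2 (FDR 0.0614), and mt-Tt not without MKOS MEF replicate 1 (FDR 0.0686) or 2 (FDR 0.0535). Neither rRNA was called: mt-Rnr2 differed by 0.32 (SE 0.46) and mt-Rnr1 by -0.01 (SE 0.42). Macrophage and blood markers summed to 148 to 1787 CPM in MKOS 2NG- and 3NG- cells, 14.6 to 228 CPM in MEFs and 3.64 to 12.03 CPM in ESCs, and keratinocyte markers to 6.10 to 160 CPM in the MKOS cells and at most 2.66 CPM in MEFs. *Lyz2* made up most of the macrophage and blood sum (median 854 of 880 CPM in the MKOS cells) and *Krt14* nearly all of the keratinocyte sum (median 78.5 of 78.9 CPM), while *Krt5* reached at most 1.33 and *Krt15* at most 2.06 CPM there. Their part in the mitochondrial differences was not tested.

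In OKMS E-CAD- 2NG- cells against OKMS MEFs (3 and 2 libraries), 2 members were lower and none higher, beside 21.8% of all rows called (11.7% higher, 10.1% lower). mt-Nd3 fell from 154 and 243 CPM to 77.2, 43.3 and 52.5 CPM, by 1.78 on the log2 scale (SE 0.46, edgeR FDR 0.00372). mt-Tl2 had 271 reads in the MEFs and 8 in the sorted cells, a ratio of 34.3 (interval 17.2 to 80.4, edgeR FDR 0.00843). The groups did not overlap in either, as in 46.6% of all rows. The call and missing overlap of mt-Tl2 are a description, since MEF libraries alone carried the row through the low-count filter. mt-Nd3 lost its call without OKMS MEF replicate 2 (FDR 0.0571), and mt-Tl2 without OKMS MEF replicate 1 (FDR 0.0586). The OKMS MEFs were the 2 highest of all 48 libraries in mt-Nd3, and MKOS MEFs, at 45.0 and 53.6 CPM, were below them. mt-Tf was 37.5 and 42.3 CPM in OKMS MEFs and 219, 91.0 and 122 CPM in the sorted cells, without overlap, and was not called. The count of 2 rose to 8 without the low-count filter, to 5 with the replicate number as a block and to 4 with DESeq2, with spike-in scaling or without 7 sorted libraries. The members so gained were mt-Tf and mt-Co2 (higher) and mt-Ti, mt-Tm, mt-Tw and mt-Co1 (lower). Macrophage and blood markers summed to 56.4 to 879 CPM in OKMS E-CAD- 2NG- and 3NG- cells and 14.6 to 228 CPM in MEFs, and endothelial markers to 10.6 to 27.9 and 1.28 to 4.71 CPM. *Lyz2* made up most of the former sum (median 634 of 645 CPM in the OKMS cells), while *Csf1r* had medians of 1.32 and 1.43 CPM. *Tek* made up most of the endothelial sum (medians 14.2 and 1.87 CPM). *Kdr* was lower than in MEFs (0.330 and 1.37 CPM), and *Cdh5* had a median of 0 in both. The part of these markers in the differences was not tested.

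MKOS and OKMS were compared within each gate, the question being whether cells of the same surface phenotype differ by cassette. No member was called by edgeR in E-CAD+ 2NG- cells (5.07% of all rows called, 1 member at an unadjusted p under 0.05), in 3NG- cells (2.17% of rows, 2 members) or in 3NG+ cells (0.685% of rows, 5 members), and DESeq2's Wald test also called 0 in each. An unadjusted p under 0.05 was reached by 18.9%, 14.97% and 12.2% of all rows in the 3 gates. In 2NG- cells the lowest p belonged to the tyrosine tRNA mt-Ty, at 0.816, 1.77 and 0.948 CPM with MKOS and 0, 0 and 0.0705 CPM with OKMS (FDR 0.259). mt-Co2 was next (log2 difference -0.38, FDR 0.422). In 3NG- cells the isoleucine tRNA mt-Ti was 4.24, 31.6 and 9.37 CPM with MKOS and 5.18, 2.38 and 3.53 CPM with OKMS (log2 difference 1.86, FDR 0.207). mt-Tm was 3.02, 0.630 and 2.51 CPM against 4.02, 8.09 and 7.77 CPM (-1.77, FDR 0.330). In 3NG+ cells mt-Ti was 20.6, 2.77 and 32.99 CPM with MKOS and 4.67, 0.699 and 2.86 CPM with OKMS (2.41, FDR 0.138), and the tryptophan tRNA mt-Tw was 17.2, 7.90 and 8.74 CPM against 4.67, 0 and 1.29 CPM (2.09, FDR 0.240). Without the low-count filter edgeR called mt-Ti higher with MKOS in 3NG- (FDR 0.0153) and 3NG+ cells (FDR 0.00157). In that fit mt-Nd1 was lower with MKOS in both (FDR 0.00339 and 0.0325), as was mt-Tf in 3NG+ cells (FDR 0.0303). The rRNA intervals allowed differences between the cassettes of -1.34 to 0.99 for mt-Rnr1 and -1.31 to 1.21 for mt-Rnr2 on the log2 scale across the 3 gates.

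E-CAD+ and E-CAD- cells of OKMS, 6 libraries each, gave no called member by edgeR (7.08% of all rows called, 0 members and 21.5% of all rows at an unadjusted p under 0.05) or DESeq2. mt-Atp6 was 1011, 760, 752, 920, 1030 and 689 CPM in E-CAD+ cells and 996, 1204, 961, 1496, 1250 and 1341 CPM in E-CAD- cells. Its log2 difference was -0.35 (FDR 0.283), and that of mt-Rnr1 was -0.47 (FDR 0.313). Without the low-count filter mt-Rnr1 was called at the same difference (edgeR FDR 0.00851). Both turned positive under spike-in scaling, at 0.30 and 0.23. That scaling moved the members, with the few-read tRNAs left out, up by a median of 0.60.

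Cells that differed in ICAM1 or in *Nanog*-GFP were compared next. Between 3NG- and 2NG- cells (9 libraries each) edgeR called 0 members (0.192% of all rows), with 3 members and 8.73% of all rows at an unadjusted p under 0.05. The lowest p were those of the cysteine tRNA mt-Tc (-1.69, FDR 0.400) and mt-Ts1 (FDR 0.429). Between 3NG+ and 3NG- cells of MKOS it called 0 (1.58% of rows), with 2 members and 15.96% of rows at an unadjusted p under 0.05. The lowest p were those of mt-Ts1, with 0, 1 and 32 reads in 3NG+ cells and 0, 0 and 0 in 3NG- cells (FDR 0.129), and of mt-Tw (1.83, FDR 0.224). Between 3NG+ and 3NG- cells of OKMS E-CAD+ it called 0 (6.26% of rows), with 1 member and 21.5% of rows at an unadjusted p under 0.05. The member was mt-Tl2, with 4, 0 and 6 reads in 3NG- cells and 0, 0 and 0 in 3NG+ cells (FDR 0.182), followed by mt-Tm (-1.70, FDR 0.273). For the difference between OKMS and MKOS in the change from 3NG- to 3NG+ it called 0 (0.0256% of rows called, 2 members and 7.44% of rows at an unadjusted p under 0.05), with the lowest FDRs at 0.568 for mt-Ts1 and for mt-Tw (-2.56). DESeq2 called 0 members in all 4 of these comparisons. On omitting the low-count filter, edgeR called mt-Tl1 lower in 3NG- than in 2NG- cells (-0.63, FDR 0.0305) and mt-Tf higher in 3NG+ than in 3NG- cells of OKMS (1.07, FDR 0.00118).

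Established iPSCs without doxycycline (4 libraries) were compared with 3NG+ cells (6 libraries). A single member was lower and none higher, beside 3.29% of all rows called (1.25% higher, 2.05% lower). mt-Tf was 75.1, 99.4 and 203 CPM in MKOS and 328, 102 and 187 CPM in OKMS 3NG+ cells, and 8.71, 46.5, 39.4 and 65.7 CPM in the iPSCs. It fell by 2.14 on the log2 scale (SE 0.51, edgeR FDR 0.00982), and the groups did not overlap. The call was lost without MKOS iPSC -dox replicate 1 (FDR 0.106) or OKMS iPSC -dox replicate 1 (FDR 0.0848), and the difference ran from -1.75 without MKOS iPSC -dox replicate 1 to -2.98 without its replicate 2. Macrophage and blood markers summed to 38.9 to 843 CPM in 3NG+ cells and 4.90 to 23.8 CPM in iPSCs, and their part was not tested. *Lyz2* made up most of that sum in 3NG+ cells (median 132 of 143 CPM). Without the low-count filter 6 members were called, the others being mt-Co1 (higher) and mt-Tv, mt-Nd3, mt-Cytb and mt-Tt (lower). mt-Tf was thus called higher between MKOS MEFs and 2NG- cells and lower between 3NG+ cells and iPSCs, from separate libraries.

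iPSCs in 2i, a medium with inhibitors of MEK and GSK3, were compared with iPSCs -dox (4 libraries each). A single member was higher and none lower, beside 4.34% of all rows called (1.89% higher, 2.45% lower). mt-Tv was 4.87, 8.87, 10.7 and 15.3 CPM without 2i and 17.1, 28.2, 15.1 and 50.1 CPM in 2i, higher by 1.44 on the log2 scale (SE 0.44, edgeR FDR 0.0494). The groups overlapped by 1 library. This call held only without OKMS 2i replicate 1 and was lost without MKOS -dox replicate 1 (FDR 0.181) or 2 (0.0720), MKOS 2i replicate 1 (0.0517) or 2 (0.172), OKMS -dox replicate 1 (0.161) or 2 (0.0831), or OKMS 2i replicate 2 (0.355). The tRNAs had a median log2 difference of 0.85, with 14 above and 6 below 0, against 0 over all rows. In total 3 members did not overlap, mt-Nd6 and the tRNAs mt-Tq and mt-Ta, all higher in 2i, beside 7.74% of all rows (4.96% higher). mt-Nd6 stood at 351, 190, 279 and 168 CPM in 2i and 146, 136, 108 and 131 CPM without it, a difference of 0.82 (SE 0.28, FDR 0.0853). Without the low-count filter mt-Nd6, mt-Tf, mt-Tm, mt-Ta and mt-Tt were called higher as well, and with spike-in scaling no member was.

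iPSCs -dox against TNG MKOS and TNG OKMS ESCs (4 libraries each) gave no member by edgeR (1.4% of all rows called, 3 members and 13.97% of all rows at an unadjusted p under 0.05) or by DESeq2. mt-Ty had the lowest p (FDR 0.298), and mt-Nd6 followed, at 146, 136, 108 and 131 CPM in iPSCs and 77.1, 88.8, 60.7 and 143 CPM in ESCs (0.61, FDR 0.306). mt-Nd6 was called without TNG OKMS ESC replicate 2, the ESC library with 143 CPM (FDR 0.0349). In the fit with no low-count filter, mt-Rnr1 (0.63, FDR 0.00803) and mt-Rnr2 (0.49, FDR 0.0411) were called higher and mt-Tf lower (-0.97, FDR 0.00141).

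The nuclear genes that serve the mitochondrial genome were counted in 4 lists. In ESCs against MEFs, 5 of 11 tested genes of mtDNA replication and maintenance were higher and 0 lower, with a median log2 difference of 0.71. Of 13 genes of mitochondrial transcription and its nuclear regulators, 7 were higher and 0 lower (median 0.92). Of 31 genes of mitochondrial RNA processing, 23 were higher and 2 lower (median 1.21), and of 76 mitochondrial ribosomal proteins 42 were higher and 6 lower (median 0.52). Of all rows, 26% were called higher and 25% lower. The 35 mitochondrial members had a median of -0.58 in the same fit, and all rows 0. By class, the median was -0.80 for the rRNAs, -0.17 for the protein-coding rows and -1.22 for the tRNAs.

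**Figure D5:**
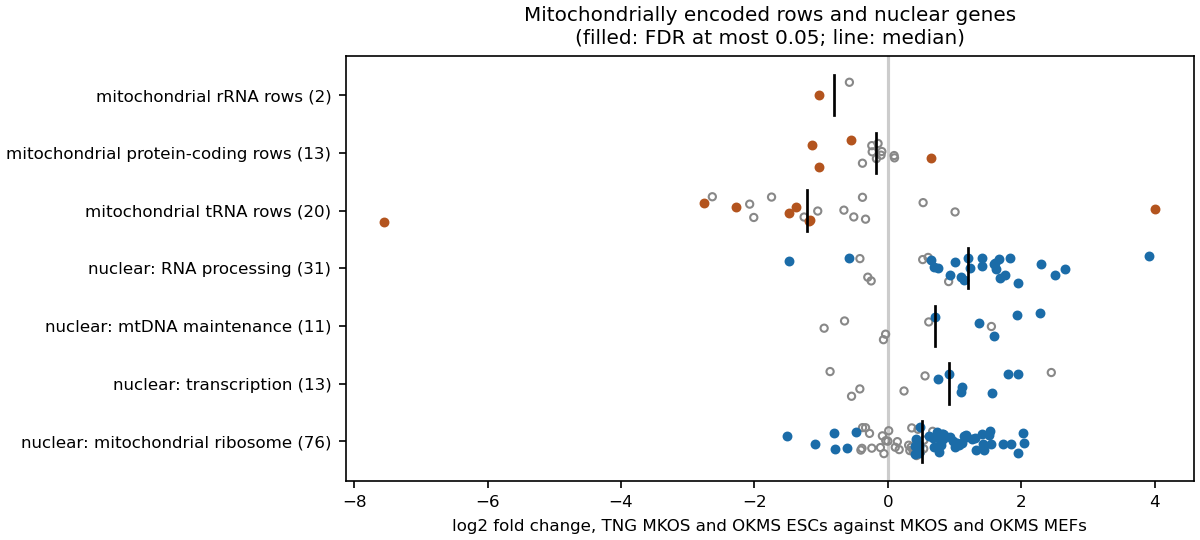
Log2 difference of ESCs minus MEFs for each mitochondrial member and each gene of the 4 nuclear lists, with filled points at an edgeR FDR of at most 0.05. The rRNA, protein-coding and tRNA rows have medians of -0.80, -0.17 and -1.22, and the lists have medians of 0.71, 0.92, 1.21 and 0.52.

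*Ssbp1*, which binds single-stranded mtDNA, was higher in ESCs by 1.37 on the log2 scale (SE 0.19, edgeR FDR 6.72e-08), and *Peo1*, the mtDNA helicase, by 2.28 (SE 0.33). *Polg*, the mtDNA polymerase, was higher by 1.59 (SE 0.30), *Rnaseh1* by 1.94 (SE 0.36) and *Lig3*, a DNA ligase, by 0.71 (SE 0.25). *Tfam*, which packages mtDNA and starts its transcription, was higher by 1.56 (SE 0.19, edgeR FDR 6.72e-09), *Tfb1m*, an rRNA methyltransferase, by 1.12 (SE 0.31), and the transcription factor *Gabpa* by 0.92 (SE 0.24). In RNA processing, *1110008L16Rik* was higher by 3.92 (SE 0.42), *Elac2*, which cuts the 3′ end of tRNAs, by 2.66 (SE 0.36) and *Grsf1*, an RNA-binding protein of mitochondrial RNA granules, by 0.75 (SE 0.24). *Hsd17b10*, like *1110008L16Rik* (*Prorp*) a subunit of mitochondrial RNase P, was lower (-1.49, SE 0.26), as was *Rexo2*, an oligoribonuclease (-0.58, SE 0.24). The ribosomal proteins *Mrpl15* (1.95, SE 0.18), *Mrpl9* (1.26, SE 0.20), *Mrpl1* (1.14, SE 0.19) and *Mrpl23* (0.40, SE 0.17) were all higher.

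In MKOS 2NG- cells against MKOS MEFs the counts higher and lower were 5 and 0 for maintenance, 1 and 0 for transcription, 14 and 1 for RNA processing and 31 and 0 for ribosomal proteins, beside 15% and 12% of all rows. In OKMS E-CAD- 2NG- cells against OKMS MEFs they were 2 and 0, 1 and 0, 12 and 1, and 35 and 2, beside 11.7% and 10.1% of all rows. *Tfam* was higher by 2.02 in the OKMS comparison (SE 0.26, edgeR FDR 2.56e-07), and by 0.54 in the MKOS one, which did not pass (SE 0.24, FDR 0.0961). *Tfb1m* was higher in the MKOS comparison by 1.16 (SE 0.41, FDR 0.0303) and stood at -0.02 in the OKMS one (SE 0.41). *Rexo2* was higher in the MKOS comparison by 3.00 (SE 0.35), and stood at -0.32 in the OKMS one (SE 0.30, FDR 0.497). Whether the cassettes differ in these changes from MEFs was not tested. In the other 11 comparisons at most 3 genes of the 4 lists together were higher and at most 3 lower.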

How the data were processed

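Cells were sorted (20000 to 100000 per sample), and 10 ng of RNA per sample was used for STRT libraries, per the methods. The authors deposited raw read counts per transcript, repeat type and spike-in RNA, not normalized. Per the file headers, reads with several positions were assigned to their most 5′ exonic hit and included, and unique reads are given only as a sum over libraries. Strand-specific counting of transcripts is not stated, so rows that overlap on opposite strands are uncertain. The methods name NCBI37.1 (mm9), whereas the submitters' processing notes name Bowtie 0.12.7 and mm10. The mitochondrial genes have the same coordinates in both annotations used here (16299 bases), and nuclear coordinates come from a BLAST 2.17.0 search of chrM in NCBIM37. Sequences were read from that genome.

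Conditions and replicate numbers came from the labels, and columns were matched by name. CPM was computed over transcript rows, without length scaling, since a 5′ tag count does not grow with length. Counts were tested with edgeR 4.0.16 in R 4.3.3 (TMM, default filter by condition, quasi-likelihood fit of 20 conditions over 48 libraries, 28 residual degrees of freedom, common biological coefficient of variation 0.466, TMM factors 0.852 to 1.23). Benjamini-Hochberg adjustment ran over 15630 rows, and an FDR of at most 0.05 was called. Fold changes of mt-Tl2 and mt-Ts1, which have few reads, are given as ratios of pooled counts with exact 95% intervals. Alternatives were DESeq2 1.42.0, DESeq2's size factors, spike-in scaling, no low-count filter, the replicate number as a block, leaving out 7 sorted libraries that do not enter the condition averages listed by the authors, and each library left out in turn. The leave-one-out fits kept the rows and the trended dispersions of the full fit. The test was tried on simulated counts. Python 3.11.15, pandas 2.3.3, NumPy 2.4.6, SciPy 1.17.1 and Matplotlib 3.10.9 were used.

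Members, lists and comparisons were chosen with earlier results of these data known. Named members were those called in a comparison (at most the 5 of largest change, or the 2 of lowest p where none was called), the rRNAs, and the most and least abundant protein-coding rows. mt-Nd6, mt-Co1 and mt-Nd2, the remaining tRNAs called in ESCs, and members named for not overlapping were chosen after their values were seen. Of each nuclear list, up to 5 genes called in the most comparisons were named. Marker lists covered fibroblast, pluripotent, epithelial and sorting, macrophage and blood, endothelial, muscle and keratinocyte genes. Summed over a list, epithelial and sorting markers were 56.4 to 384 CPM over all classes, endothelial markers 0 to 27.9 CPM and muscle markers 15.5 to 151 CPM.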

Additional observations from a re-analysis of the deposited data

Results flagged for a closer look

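Within each class of cells with 4 to 10 libraries, the mitochondrial share (7 groups) and the levels of named members (112 groups) were searched for a library whose distance to its nearest neighbor was large for the range of the group by Dixon's criterion. Chance alone is expected to mark about 1 in 20 groups, and 6 were marked, none of them a share. In 3NG+ cells, mt-Rnr1 was 9234 CPM in OKMS replicate 1, against 2753 to 4925 CPM in the other libraries. mt-Atp8 was 17229 CPM in OKMS 3NG+ replicate 2, and mt-Atp6 was 1620 CPM in MKOS 3NG+ replicate 1. mt-Atp8 was 15839 CPM in MKOS 2NG- replicate 3, where the other libraries of MKOS 2NG- and 3NG- cells had 8668 to 11065 CPM. In OKMS E-CAD+ 2NG- and 3NG- cells, mt-Co1 was 3492 CPM in 3NG- replicate 1, and mt-Tl2 was 1.41 CPM (6 reads) in 3NG- replicate 3. The 6 values came from 6 different libraries.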

How the results depend on the processing

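Main counts of called members were 0 in 9 comparisons, 3 (MKOS 2NG- against MEFs), 2 (OKMS E-CAD- 2NG- against MEFs), 1 (iPSCs against 3NG+), 1 (2i against -dox) and 13 (ESCs against MEFs). Without a low-count filter they were 2 and 3 for MKOS against OKMS in 3NG- and 3NG+ cells, 1 for E-CAD+ against E-CAD- (mt-Rnr1, FDR 0.00851), 1 for 3NG- against 2NG-, 1 for 3NG+ against 3NG- in OKMS, 8 for OKMS E-CAD- 2NG- against MEFs, 6 for iPSCs against 3NG+ cells, 6 for 2i, and 3 for iPSCs against ESCs. For ESCs against MEFs that setting added mt-Rnr2, mt-Nd1 and mt-Tf and lost mt-Te and mt-Ts1. DESeq2's Wald test gave 4, 2 and 2 for OKMS against MEFs, iPSCs against 3NG+ and 2i. Spike-in scaling gave 4 for OKMS against MEFs, 0 for 2i and 2 for ESCs against MEFs, and it reversed mt-Atp6 (0.30, FDR 0.607) and mt-Rnr1 (0.23, FDR 0.736) in E-CAD+ against E-CAD- cells. It moved the log2 differences of the members, with the few-read tRNAs left out, by a median of -0.80 to 0.60 across comparisons. Without the 7 sorted libraries, 4 members were called for OKMS against MEFs and 2 for 2i. The cause of these changes was not tested. Leaving out each library in turn, the counts stayed at 0 in the 8 comparisons among sorted cells and ran from 1 to 3, 1 to 3, 0 to 1, 0 to 1 and 6 to 12 in the 5 with calls, in the order above, and from 0 to 1 for iPSCs against ESCs. As a share of transcript and repeat reads, the class medians were 5.95% (MEFs), 7.22% (MKOS 2NG- and 3NG-), 5.92% (3NG+) and 5.52% (iPSCs), and the other 3 moved by less than 1 SD.

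Libraries with the same replicate number had a mean correlation of deviations of 0.0810 over 84 pairs (lowest -0.0414), 23 of them over 0.1, and 21 of the 24 sorted libraries correlated best with their own number, a hint from the data and not from the design. The main fit had no term for this number. With the replicate number as a block, 5 members were called for OKMS against MEFs, and mt-Tg was added as lower in ESCs than in MEFs (edgeR FDR 0.0454).

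Rows at a few CPM are near the floor of 3 reads, so small differences of most tRNAs cannot be resolved at this depth. Rows in the chromosome 1 copy hold few or no unique reads, and so do some tRNA rows outside it, such as mt-Tw, mt-Ta and mt-Tc. The origin of the mt-Atp8, mt-Co2 or mt-Nd3 reads therefore cannot be resolved, a limit set by matching sequence and not by depth.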
